A study of Mus musculus with 12 samples.

Results

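The genes described here are 37 mouse genes that encode subunits of the receptors for glutamate and GABA: 4 AMPA, 7 NMDA, 5 kainate and 1 delta receptor gene, 7 metabotropic glutamate receptor genes, 11 GABA-A subunit genes and both GABA-B subunit genes. The list was drawn up by gene name, with earlier results of these data known, out of the 54532 genes of the count tables. RNAseq was performed on 12 samples of brainstem progenitors, 3 in each of 4 groups. According to the labels, all groups came from C57BL/6 pups at postnatal days 3 to 5 (the study's methods give day 3 for such cultures) that carried Nestin TVA and a floxed p53, and all were cultured without serum and with EGF and FGF2. In this system the receptor for RCAS viruses is under the nestin promoter, so that vectors enter nestin-expressing cells. Human *ACVR1* was delivered either as WT or with the R206H mutation, and each form was given alone or together with H3.1K27M, which makes the 4 groups. ACVR1 is a type I receptor for bone morphogenetic proteins and H3.1K27M is a histone H3.1 in which lysine 27 is a methionine. No Cre is named among the vectors of these samples, so p53 was floxed in every group alike, and no group lacked an *ACVR1* vector. No label names an H3.1 WT or other vector in place of H3.1K27M. A difference with H3.1K27M can thus not be told apart from that of adding a further vector or more histone.

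Glutamate opens the AMPA, NMDA and kainate receptors, which are cation channels, and acts through G proteins on the metabotropic receptors. GABA opens the GABA-A receptors, which are chloride channels of usually mixed α, β and γ subunits, and acts through G proteins on the GABA-B receptor, a dimer that needs both of its subunits. Outside neurons, these receptors are known from astrocytes and from oligodendrocyte progenitors, which receive synapses from neurons, and neuronal synapses onto glioma cells use AMPA receptors.

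The summed counts ran from 19315020 to 26456257 per sample with a median of 20994196. Of the 37 genes, 27 passed the filter on low counts (a mean of at least 10 normalized counts) in all 5 fits, 3 passed in some fits and 7 in none. *ACVR1* WT replicate 1 stood apart. Its log2 CPM (counts scaled to the same library total) correlated with the other *ACVR1* WT samples at 0.953 and 0.971 across genes, whereas *ACVR1* WT replicates 2 and 3 correlated at 0.989 and pairs within the other groups between 0.993 and 0.995. It correlated more closely with the 3 *ACVR1* R206H samples, at 0.986 to 0.990, while *ACVR1* WT replicates 2 and 3 correlated with those samples at 0.969 to 0.988. Leaving it out thus removes a control library that was close to the *ACVR1* R206H group. Among the 27 genes, 8 were more than 2-fold lower in this library than in the mean of *ACVR1* WT replicates 2 and 3, and 2 were more than 2-fold higher. The biological coefficient of variation was 0.274 in the *ACVR1* WT group and between 0.0451 and 0.0594 in the others, so the counts of genes called against the *ACVR1* WT group, and the values that change most, are also given without that library. The summed level of 8 astrocyte markers also differed within that group, at 5114, 10981 and 15292 CPM in *ACVR1* WT replicates 1 to 3. It ran from 7979 to 9076 CPM with *ACVR1* R206H, from 5586 to 5770 CPM with *ACVR1* WT and H3.1K27M and from 6604 to 6802 CPM with both mutations. In the *ACVR1* WT group *Aqp4* (782 to 5800 CPM), *Gfap* (343 to 2655 CPM) and *Gja1* (299 to 1579 CPM) varied most, and the other astrocyte markers varied less. With H3.1K27M the group means of *Slc1a3* and *S100b* were higher in both backgrounds. Those of *Gfap*, *Aqp4*, *Gja1*, *Aldoc* and *Slc1a2* were lower in both. The sum of 10 neuron markers was mostly *Map2* and was lower with H3.1K27M, at 664 to 835 CPM against 1192 to 1735 CPM. Counted by gene, 2 of the 10 rose and 2 fell with H3.1K27M in *ACVR1* WT cells (12.6% and 10.4% of all genes). In *ACVR1* R206H cells 7 rose and 2 fell (29.1% and 27.4% of all genes). The sum of 6 mature oligodendrocyte markers was 323, 581 and 747 CPM in *ACVR1* WT replicates 1 to 3. It was 369.9 to 455 CPM with *ACVR1* R206H and 300.3 to 354 CPM with H3.1K27M. With H3.1K27M 2 of the 5 tested fell in *ACVR1* WT cells (10.4% of all genes) and 3 in *ACVR1* R206H cells (27.4% of all genes). In both, 0 rose (12.6% and 29.1% of all genes). The 6 microglia markers summed to at most 7.04 CPM and the 5 endothelial markers to at most 15.4 CPM in any sample, whereas none of the 8 astrocyte markers had a group mean under 1 CPM. The 5 fibroblast markers, mostly *Pdgfra*, summed to 132, 430 and 300 CPM in *ACVR1* WT replicates 1 to 3. With H3.1K27M 2 of 3 tested rose and 0 fell in *ACVR1* WT cells, and 2 rose and 1 fell in *ACVR1* R206H cells. The shares of all genes are those given for the neuron markers. In bulk samples, fewer cells of a type and less RNA per cell cannot be told apart, and the part of cell type shares in the results that follow was not tested. Labels do not say whether the replicates were separate cultures, so p values measure the spread between these samples, which may be technical.

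Per length, *Gabbr1*, *Grm5*, *Grik5* and *Gria4* had the highest means over the 12 samples of the 37 genes, with group means between 16.9 and 71.5 CPM per kb of exon. *Gabbr1* had the highest group means without H3.1K27M, whereas with it *Gabbr1* (20.8 and 16.9 CPM per kb) lay below *Gria3* (26.5 and 26.4 CPM per kb). Single genes held a large share of several classes. *Gria4* made up 45.4% to 52.5% of the AMPA class per length (group means), *Grin3a* 94.2% to 95.7% of the NMDA class, *Grm5* 61.6% to 84.7% of the metabotropic class and *Gabrg1* 59.5% to 75.5% of the GABA-A class. The 7 genes that passed no filter were *Grin2c*, *Grm2*, *Grm6*, *Grm8*, *Gabra6*, *Gabrd* and *Gabre*, each at 0.582 CPM or less in every sample. The sum over all 37 genes stayed between 1729 and 2271 CPM. What differed was the share of the classes: AMPA receptor transcripts summed to 337.7 ± 16.9 CPM (SD, n = 3) with *ACVR1* WT and 364 ± 13.8 with *ACVR1* R206H, and to 602 ± 40.5 and 708 ± 18.6 CPM with H3.1K27M added. GABA-B transcripts went the other way, from 656 ± 277 and 438 ± 43.3 CPM to 170.0 ± 7.66 and 136 ± 4.47 CPM. In both classes the samples with H3.1K27M lay apart from those without it.

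**Figure D1:**
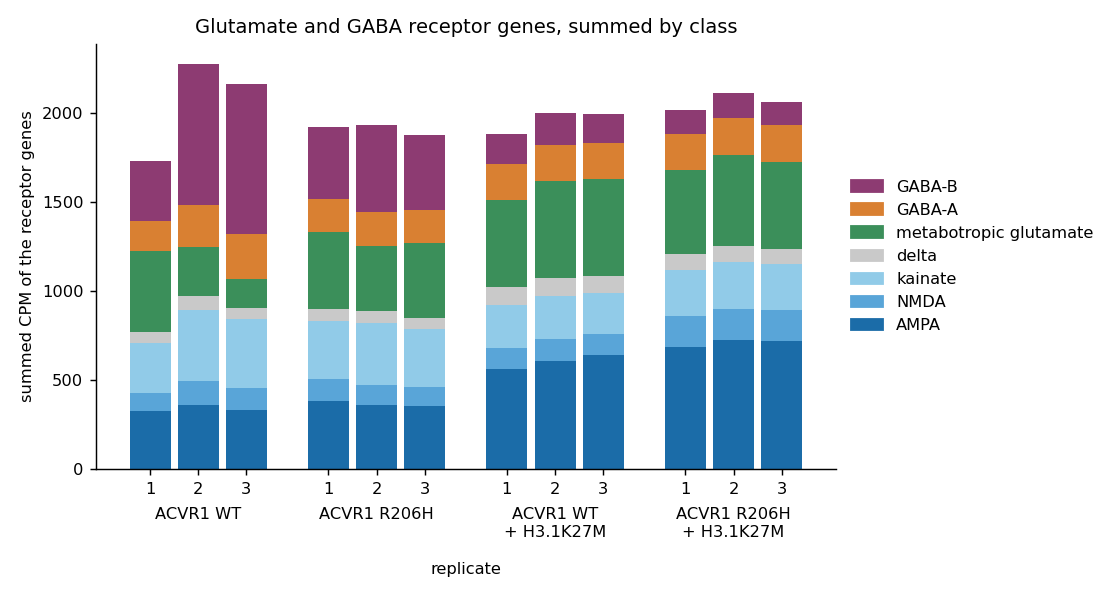
Summed CPM of the 37 receptor genes (vertical axis) in each of the 12 samples, stacked by receptor class, with the replicates of each group side by side. The AMPA part is at most 380.1 CPM in samples without H3.1K27M and at least 561 CPM with it, while the GABA-B part is at least 338 CPM without it and at most 178 CPM with it.

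The samples with and without H3.1K27M were compared within each *ACVR1* background, to ask what differed where the H3.1K27M vector was added. With *ACVR1* R206H, 23 of 28 tested receptor genes passed an adjusted p of 0.05 in edgeR's quasi-likelihood test, 12 higher and 11 lower with H3.1K27M. That is 82.1%, against 56.5% of all genes tested (29.1% higher and 27.4% lower). DESeq2 called 22, against 50% of all genes. With all 12 samples in one fit it was 17, without *Gria1*, *Grin1*, *Grm5*, *Grm7*, *Gabra4* and *Gabrb1*. With *ACVR1* WT, 16 of 29 passed, 7 higher and 9 lower, which is 55.2% against 23% of all genes (12.6% higher and 10.4% lower). DESeq2 called 20, against 29.4% of all genes. Without *ACVR1* WT replicate 1, edgeR called 23 of 30, 10 higher and 13 lower, against 52.6% of all genes (26.9% higher and 25.6% lower). The count in *ACVR1* WT cells was 7 without *ACVR1* WT replicate 2 and 4 without any one of the 3 *ACVR1* WT samples with H3.1K27M, and those 4 were *Gria4*, *Grik2*, *Gabrb2* and *Gabrg3* each time. The samples of the compared groups did not overlap for 24 of 28 genes with *ACVR1* R206H (63.1% of all genes) and for 20 of 29 with *ACVR1* WT (44.6% of all genes). The median size of the log2 fold change was 0.80 over the receptor genes and 0.26 over all genes with *ACVR1* R206H, and 1.17 against 0.27 with *ACVR1* WT. The 2 comparisons share no samples. *Gria3*, *Gria4*, *Grin2a*, *Grid1*, *Gabrb2*, *Gabrg1* and *Gabrg3* were higher with H3.1K27M in both backgrounds. *Grin1*, *Grik1*, *Grik2*, *Grik3*, *Grm4*, *Gabra4*, *Gabrb1*, *Gabbr1* and *Gabbr2* were lower in both, and 0 genes changed in opposite directions. Of all 15146 genes tested in both backgrounds, 12.2% were higher in both, 9.46% lower in both and 0.0396% changed in opposite directions. Without *ACVR1* WT replicate 1 the log2 differences in *ACVR1* WT cells were 1.91 for *Gria3*, 0.60 for *Gria4*, -1.51 for *Grik2*, -1.71 for *Grik3*, -2.18 for *Gabra4*, -2.33 for *Gabrb1* and -2.08 for *Gabbr1*, each still past the threshold.

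*ACVR1* R206H was compared with *ACVR1* WT in the presence and in the absence of H3.1K27M. With H3.1K27M, 14 of 30 tested receptor genes passed, 10 higher and 4 lower with *ACVR1* R206H (46.7%, against 20.3% of all genes, 11.4% higher and 8.95% lower). DESeq2 also called 14, against 16.1% of all genes, but a single fit of all 12 samples, in which the *ACVR1* WT group adds to the estimate of the spread, called 3 (*Gria4*, *Grin3a* and *Grm4*). In 19 of the 30 (63.3%) the 3 samples of a group all lay on one side of the other 3, against 37.2% of all genes. Without H3.1K27M, 0 of 27 passed in edgeR, where 0% of all genes did, and 0 in DESeq2, where 0.173% did. In each tool 3 had an unadjusted p under 0.05, and the groups did not overlap for 3 genes, against 9.21% of all genes. Once *ACVR1* WT replicate 1 was left out, 13 of 27 passed, 3 higher and 10 lower, against 23.1% of all genes (12.1% higher and 11% lower). *Gria3* (log2 0.81), *Grm4* (1.06) and *Grm5* (1.05) were the higher ones. The lower ones were *Gria2* (-0.65), *Grin1* (-1.12), *Grik3* (-0.84), *Grik4* (-0.52), *Grm7* (-1.25), *Gabra2* (-1.20), *Gabra4* (-0.88), *Gabrb1* (-1.21), *Gabbr1* (-0.80) and *Gabbr2* (-1.53). The tests of *ACVR1* R206H against *ACVR1* WT and of H3.1K27M against none share samples, so their values stand side by side below and are not combined.

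**Figure D2:**
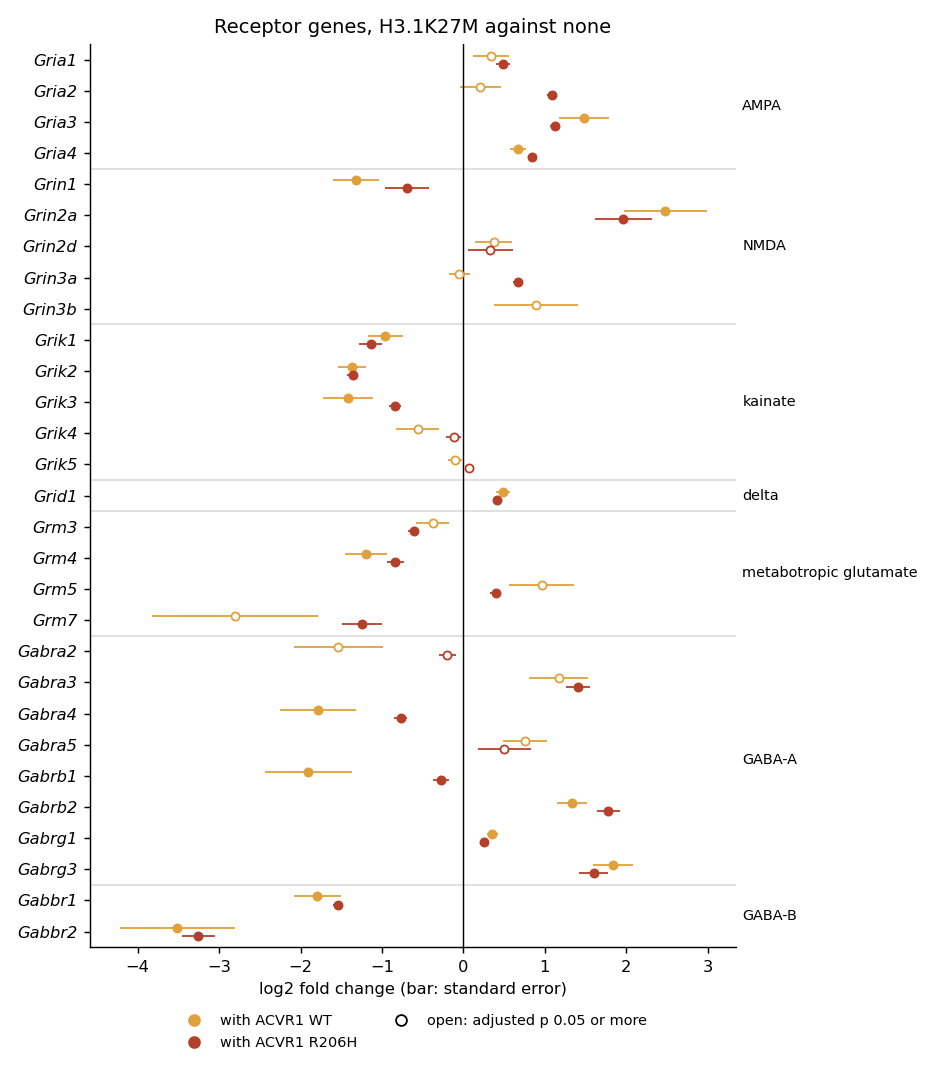
Log2 fold change of H3.1K27M against none (horizontal axis, bar: standard error) for each tested receptor gene, grouped by class, with *ACVR1* WT and with *ACVR1* R206H, filled where the adjusted p is under 0.05. Over all samples the 4 AMPA genes lie right of 0 in both backgrounds (0.21 to 1.48, where the 0.21 of *Gria2* with *ACVR1* WT is -0.04 without *ACVR1* WT replicate 1), and *Gabbr2* lies farthest left at -3.52 and -3.25.

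The AMPA receptor genes encode the 4 pore-forming subunits of the fast glutamate channel. All 4 rose with H3.1K27M in the *ACVR1* R206H background, where 29.1% of all genes did, and 2 of them in the *ACVR1* WT background, where 12.6% did. In addition, 3 rose further with *ACVR1* R206H where H3.1K27M was present, against 11.4% of all genes, and of these *Gria4* alone was called with all 12 samples in one fit. *Gria4* had 110.4, 131 and 125 CPM with *ACVR1* WT, 150.0, 138 and 139.5 with *ACVR1* R206H, 182, 195 and 212 with *ACVR1* WT and H3.1K27M, and 239, 256 and 257 CPM with both mutations. No group overlapped another, and the order of the 4 groups was the same as for their summed AMPA level, which includes *Gria4* itself. *Gria4* was 1.59-fold higher with H3.1K27M in *ACVR1* WT cells (log2 0.67 ± 0.09 SE, edgeR adjusted p = 0.00592) and 1.79-fold higher in *ACVR1* R206H cells (log2 0.84 ± 0.05 SE, adjusted p = 5.63e-08). *ACVR1* R206H raised it 1.30-fold with H3.1K27M (adjusted p = 0.000434), and its log2 difference without H3.1K27M was 0.21 ± 0.08 (adjusted p = 0.94).

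*Gria3* lay at 141, 78.7 and 59.2 CPM with *ACVR1* WT and at 132, 109.6 and 122 CPM with *ACVR1* R206H. With H3.1K27M it lay at 248, 266 and 271 CPM in the *ACVR1* WT samples and at 253, 266 and 261 CPM in the *ACVR1* R206H samples. The samples with H3.1K27M were thus all higher, and the 2 groups that had it overlapped. The increase was 2.79-fold with *ACVR1* WT (adjusted p = 0.019) and 2.19-fold with *ACVR1* R206H (adjusted p = 2.82e-08), and *ACVR1* R206H made a log2 difference of 0.02 ± 0.04 with H3.1K27M. *Gria2* encodes the subunit that, once edited, makes the channel nearly impermeable to calcium. It had 67.5, 134 and 127 CPM with *ACVR1* WT, 82.6, 91.3 and 77.3 CPM with *ACVR1* R206H, 115, 127 and 142 CPM with *ACVR1* WT and H3.1K27M, and 169.7, 178 and 175 CPM with both. The samples with both mutations lay above all others, whereas the other groups overlapped except for *ACVR1* R206H and *ACVR1* WT with H3.1K27M. *Gria2* was 2.12-fold higher with H3.1K27M in *ACVR1* R206H cells (log2 1.09 ± 0.06 SE, adjusted p = 2.45e-08), while its log2 difference in *ACVR1* WT cells was 0.21 ± 0.25 (adjusted p = 0.59) over all samples and -0.04 ± 0.09 (adjusted p = 0.703) without *ACVR1* WT replicate 1.

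*Gria1*, the least abundant AMPA gene per length, had 8.85, 13.1 and 16.6 CPM with *ACVR1* WT, 15.6, 19.3 and 15.6 with *ACVR1* R206H, 16.0, 16.3 and 16.9 with *ACVR1* WT and H3.1K27M, and 24.8, 22.2 and 22.6 CPM with both. Here too the samples with both mutations were the highest and the other groups overlapped. *Gria1* was 1.44-fold higher with *ACVR1* R206H where H3.1K27M was present (adjusted p = 0.000114) and 1.41-fold higher with H3.1K27M in *ACVR1* R206H cells (adjusted p = 0.000463), and neither call was made with all 12 samples in one fit. Of the 16 listed auxiliary subunits of AMPA receptors, which set the trafficking and gating of the channel, 6 rose and 6 fell of 14 tested with H3.1K27M in *ACVR1* R206H cells, where 29.1% of all genes rose and 27.4% fell. The most significant were *Cacng5*, a transmembrane regulatory protein of these receptors, which fell by 2.53 on the log2 scale (adjusted p = 1.06e-08), and *Cpt1c*, which rose by 0.98 (adjusted p = 1.69e-08). In *ACVR1* WT cells 4 rose and 4 fell, where 12.6% of all genes rose and 10.4% fell, *Cacng5* by -2.38 (adjusted p = 0.00466) and *Cpt1c* by 1.03 (adjusted p = 0.001).

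**Figure D3:**
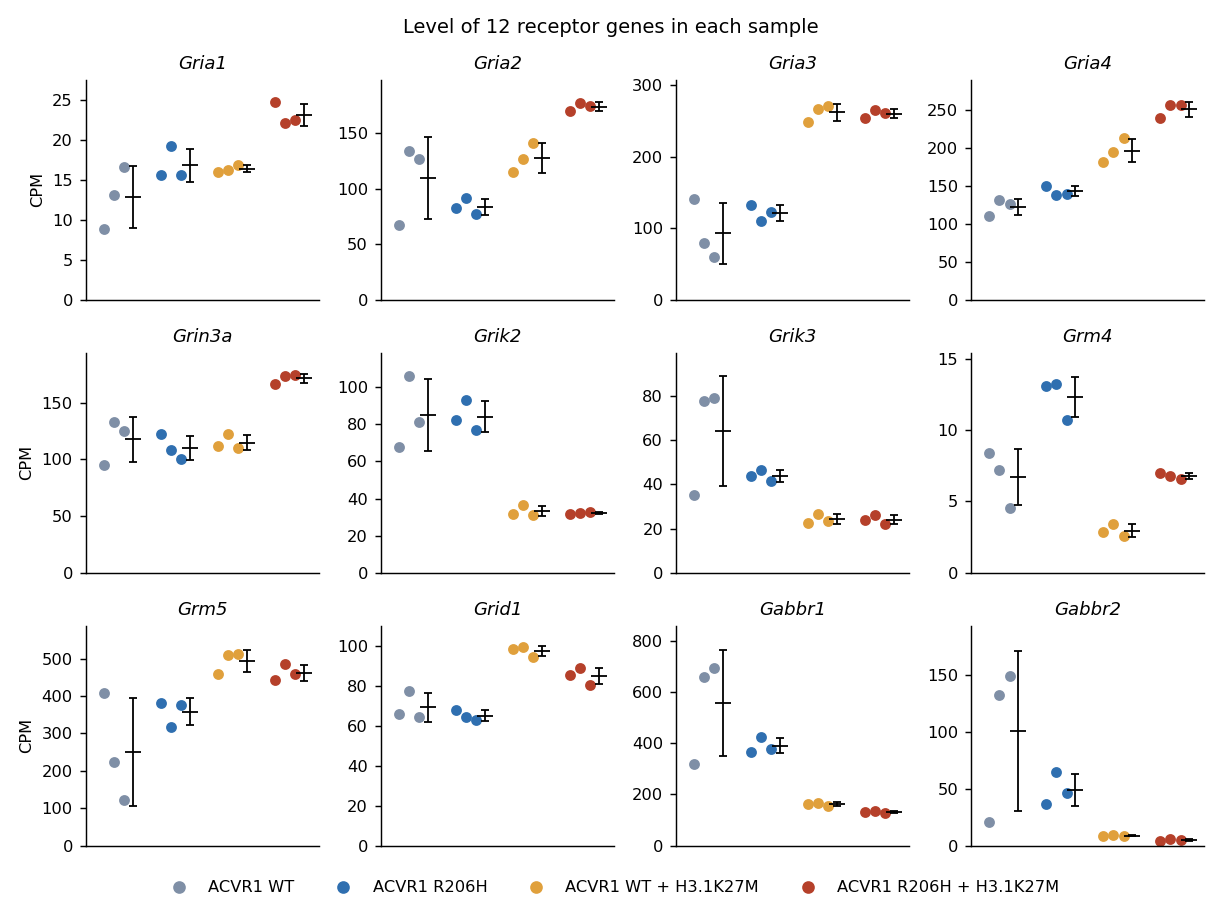
CPM (vertical axis, from 0) of 12 receptor genes in each of the 12 samples, colored by group, with the mean and SD of each group (n = 3) as the black bar. *Gria1*, *Gria2* and *Grin3a* are highest in the 3 samples with both mutations, *Gria3*, *Grik2*, *Grik3* and *Gabbr1* separate by H3.1K27M, and *ACVR1* WT replicate 1, the leftmost point, is the lowest of its group for *Gabbr1* and *Gabbr2*.

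Of the NMDA genes, *Grin3a* was the only one with group means above 2 CPM. It encodes a glycine-binding subunit that lowers calcium entry. *Grin1*, the subunit that every NMDA receptor requires, lay between 0.56 and 2.53 CPM in all samples. *Grin3a* had 95.4, 133 and 125 CPM with *ACVR1* WT, 122, 108 and 101 CPM with *ACVR1* R206H, 112, 122 and 109.6 CPM with *ACVR1* WT and H3.1K27M, and 167, 173 and 174 CPM with both mutations. The 3 groups without both mutations overlapped, and all samples with both lay above them. *Grin3a* was 1.53-fold higher with *ACVR1* R206H when H3.1K27M was present (log2 0.61 ± 0.05 SE, adjusted p = 3.27e-06), against a log2 difference of -0.10 ± 0.14 when it was absent (adjusted p = 0.94). It was 1.59-fold higher with H3.1K27M in *ACVR1* R206H cells (adjusted p = 2.58e-06), against a log2 difference of -0.05 ± 0.13 in *ACVR1* WT cells (adjusted p = 0.814). The other NMDA genes were low, *Grin2b* at most 0.987 CPM, *Grin2d* at most 1.76 CPM and *Grin3b* at most 0.716 CPM in any sample, and none of these 3 passed over all samples in a comparison where it was tested. *Grin2b* was tested for H3.1K27M in *ACVR1* WT cells once *ACVR1* WT replicate 1 was left out and was higher by 1.33 ± 0.46 on the log2 scale (adjusted p = 0.0396). *Grin2a* rose with H3.1K27M, from 0.209 ± 0.169 to 1.22 ± 0.232 CPM with *ACVR1* WT (adjusted p = 0.0184) and from 0.448 ± 0.297 to 1.74 ± 0.166 CPM with *ACVR1* R206H (adjusted p = 0.000499), while *Grin1* fell, from 1.99 ± 0.618 to 0.798 ± 0.0329 CPM (adjusted p = 0.0217) and from 1.07 ± 0.156 to 0.65 ± 0.109 CPM (adjusted p = 0.0479). The last call was lost in DESeq2 (adjusted p = 0.176), with the replicate block (edgeR adjusted p = 0.0658), without a filter, with all 12 samples in one fit and without any of 4 of the 6 samples in turn. An antisense gene covers 13.5% of the exonic length of *Grin1*, and the counting, which did not use strand, left out reads that overlap both.

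*Grik1*, *Grik2* and *Grik3*, the kainate receptor subunits that can form channels by themselves, all fell with H3.1K27M in both backgrounds. *Grik4* and *Grik5*, which need one of those to form a channel, did not pass the test in either over all samples. Both were lower with H3.1K27M in *ACVR1* WT cells once *ACVR1* WT replicate 1 was left out, *Grik4* by -0.82 ± 0.10 (adjusted p = 0.000247) and *Grik5* by -0.19 ± 0.06 (adjusted p = 0.0235). *Grik2* had 68.0, 106 and 81.2 CPM with *ACVR1* WT and 82.2, 93.3 and 77.1 CPM with *ACVR1* R206H, but 31.9, 36.6 and 31.2 CPM and 31.6, 32.3 and 32.6 CPM when H3.1K27M was added. The samples split by H3.1K27M with no overlap, and the 2 *ACVR1* groups overlapped on either side. The decrease was 2.58-fold with *ACVR1* WT (log2 -1.37 ± 0.17 SE, adjusted p = 0.00439) and 2.56-fold with *ACVR1* R206H (log2 -1.36 ± 0.07 SE, adjusted p = 1.64e-08). *Grik3* had 35.2, 77.9 and 79.0 CPM with *ACVR1* WT, 43.6, 46.5 and 41.4 with *ACVR1* R206H, 22.4, 26.7 and 23.3 with *ACVR1* WT and H3.1K27M, and 23.9, 26.3 and 22.0 CPM with both. It too split by H3.1K27M, with *ACVR1* WT replicate 1 nearest to the lower samples. It fell 2.67-fold with *ACVR1* WT (adjusted p = 0.0217) and 1.79-fold with *ACVR1* R206H (adjusted p = 2.15e-06). *Grik1* was 1.94-fold and 2.20-fold lower.

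*Grik5* was by far the most abundant kainate gene per length, and its samples lay between 149 and 181 CPM in every group. It had 149, 176 and 181 CPM with *ACVR1* WT, 170.2, 173 and 177 with *ACVR1* R206H, 165, 156 and 153 with *ACVR1* WT and H3.1K27M, and 180.4, 178 and 177 CPM with both. Only the last 2 groups did not overlap among the comparisons made, and the difference there was 1.15-fold (edgeR adjusted p = 0.00285). Its share of the class per length was higher with H3.1K27M, going from 63.3% ± 4.53 (SD, n = 3) with *ACVR1* WT to 77.4% ± 1.19 with H3.1K27M added, and from 67.1% ± 2.27 to 79.0% ± 0.354 with *ACVR1* R206H. *Grid1*, the delta receptor gene, whose protein organizes synapses and does not open to glutamate, had 65.9, 77.8 and 64.6 CPM with *ACVR1* WT and 68.2, 64.6 and 63.0 CPM with *ACVR1* R206H. With H3.1K27M it had 98.8, 99.7 and 94.9 CPM and 85.8, 89.0 and 80.8 CPM. All samples with H3.1K27M were higher than those without, by 1.40-fold (adjusted p = 0.013) and 1.33-fold (adjusted p = 3.95e-05), and among them those with *ACVR1* R206H were 1.12-fold lower (adjusted p = 0.0282).

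The metabotropic glutamate receptor genes *Grm5* and *Grm4* differed in their pattern. *Grm5* signals through phospholipase C and is known from immature astrocytes. It had 408, 223 and 123 CPM with *ACVR1* WT, 382, 317 and 375 CPM with *ACVR1* R206H, 458, 509 and 512 CPM with *ACVR1* WT and H3.1K27M, and 441, 485 and 459.7 CPM with both. The samples with H3.1K27M were higher throughout. The increase was 1.32-fold in *ACVR1* R206H cells (adjusted p = 0.000398), while in *ACVR1* WT cells a log2 difference of 0.96 ± 0.40 did not pass (adjusted p = 0.129) and passed at 1.5 ± 0.21 without *ACVR1* WT replicate 1 (adjusted p = 0.000635).

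*Grm4* encodes a receptor that lowers cyclic AMP. It was the receptor gene with the largest increase with *ACVR1* R206H where H3.1K27M was present, and it fell with H3.1K27M. It had 8.38, 7.22 and 4.56 CPM with *ACVR1* WT, 13.1, 13.2 and 10.7 CPM with *ACVR1* R206H, 2.82, 3.44 and 2.6 CPM with *ACVR1* WT and H3.1K27M, and 6.99, 6.78 and 6.54 CPM with both. With and without H3.1K27M, each sample with the R206H mutation exceeded each sample with *ACVR1* WT. The increase was 2.35-fold with H3.1K27M (log2 1.23 ± 0.13 SE, adjusted p = 3.29e-05). Without H3.1K27M it was 1.83-fold (log2 0.87 ± 0.24 SE), which did not pass the test (adjusted p = 0.94, unadjusted p = 0.00974) and passed at 1.06 ± 0.20 once *ACVR1* WT replicate 1 was left out (adjusted p = 0.00944). With H3.1K27M *Grm4* was 2.29-fold lower in *ACVR1* WT cells (adjusted p = 0.0222) and 1.79-fold lower in *ACVR1* R206H cells (adjusted p = 3.19e-05). *Grm3* and *Grm7*, of the receptors that also lower cyclic AMP, fell 1.53-fold and 2.37-fold with H3.1K27M in *ACVR1* R206H cells. In *ACVR1* WT cells their log2 differences were -0.38 ± 0.20 (adjusted p = 0.22) and -2.81 ± 1.02 (adjusted p = 0.0926). Without *ACVR1* WT replicate 1 they were -0.33 ± 0.20 (adjusted p = 0.196) and -3.36 ± 0.35 (adjusted p = 0.000121).

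**Figure D4:**
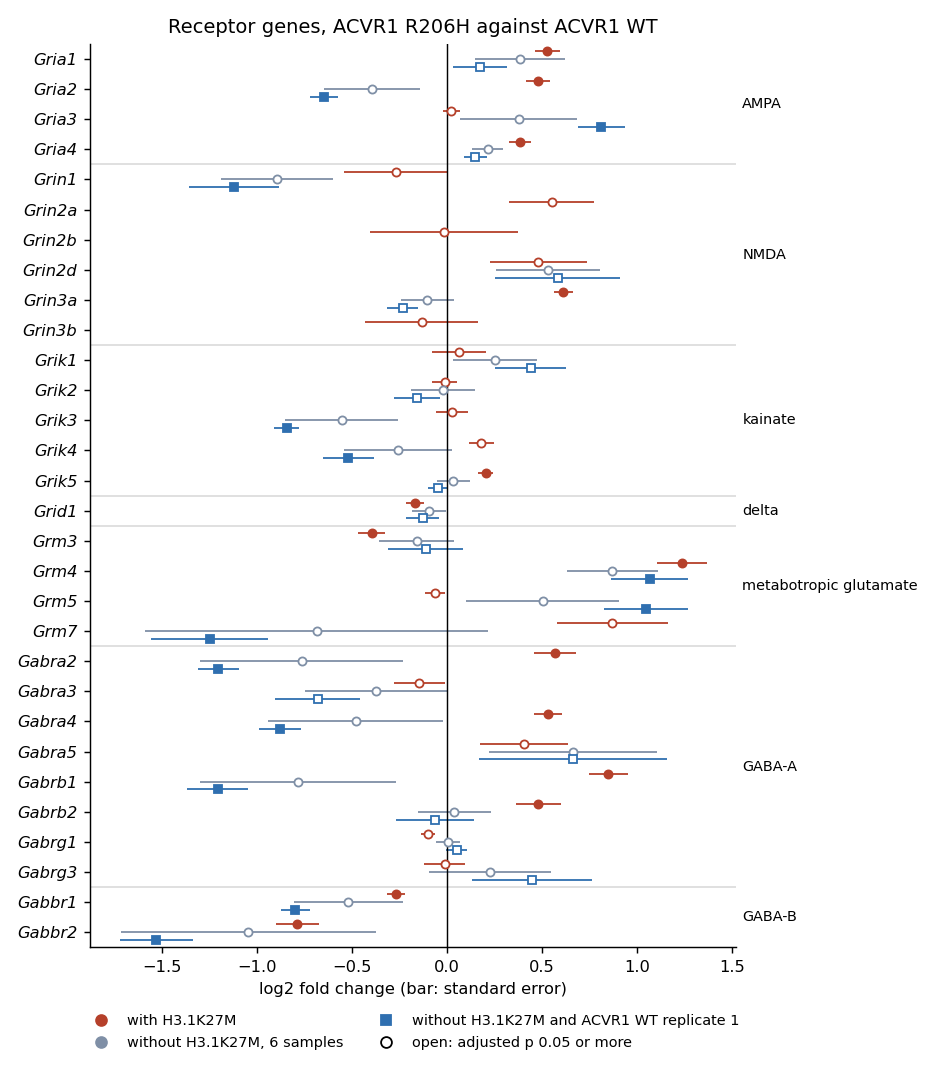
Log2 fold change of *ACVR1* R206H against *ACVR1* WT (horizontal axis, bar: standard error) for each tested receptor gene, with H3.1K27M (red), without it (gray) and without both it and *ACVR1* WT replicate 1 (blue squares), filled where the adjusted p is under 0.05. No gray point is filled, and *Gria2*, *Gabra2*, *Gabra4* and *Gabrb1* are filled on opposite sides of 0 in red and blue.

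GABA-A subunit genes lie in clusters, and 4 of the 11 listed genes lie in 1 cluster on mouse chromosome 5 (GRCm38/mm10) in the order *Gabrg1* (70751047 to 70842617), *Gabra2* (70957597 to 71095849), *Gabra4* (71569749 to 71658308) and *Gabrb1* (71658113 to 72149037). *Gabrb1* is on the plus strand and the other 3 on the minus strand. *Gabra4* and *Gabrb1* start head to head, and 46 bases of their exons overlap. The 120 bases before the RefSeq start of each gene (GRCm38.p6, written 5′ to 3′ on the strand of the gene, CpG dinucleotides in capitals) are shown because the members of this cluster moved in different directions, and those of the GABA-B genes because *Gabbr2* had the largest decrease with H3.1K27M in both backgrounds and *Gabbr1* encodes its partner.
Gabrg1, chr5:70842618-70842737, minus strand: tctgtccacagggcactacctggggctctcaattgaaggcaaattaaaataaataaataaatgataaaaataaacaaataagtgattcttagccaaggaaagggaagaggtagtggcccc
Gabra2, chr5:71095850-71095969, minus strand: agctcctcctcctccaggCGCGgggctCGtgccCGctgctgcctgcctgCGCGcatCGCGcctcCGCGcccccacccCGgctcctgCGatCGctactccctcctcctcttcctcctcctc
Gabra4, chr5:71658309-71658428, minus strand: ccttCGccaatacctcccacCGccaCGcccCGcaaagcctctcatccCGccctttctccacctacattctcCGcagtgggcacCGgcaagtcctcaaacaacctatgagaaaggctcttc
Gabrb1, chr5:71657801-71657920, plus strand: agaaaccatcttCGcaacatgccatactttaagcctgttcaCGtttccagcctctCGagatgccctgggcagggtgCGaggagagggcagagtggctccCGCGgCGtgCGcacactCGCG
Gabbr1, chr17:37045846-37045965, plus strand: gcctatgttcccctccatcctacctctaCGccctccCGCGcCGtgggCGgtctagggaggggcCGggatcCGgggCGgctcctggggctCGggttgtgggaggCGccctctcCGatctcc
Gabbr2, chr4:46991715-46991834, minus strand: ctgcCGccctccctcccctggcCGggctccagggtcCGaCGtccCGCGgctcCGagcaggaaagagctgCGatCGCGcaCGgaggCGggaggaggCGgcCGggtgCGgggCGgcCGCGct

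RefSeq promoter windows (250 bases before to 50 after a start) were at hand for 27 of the 37 genes. They held between 0 and 50 CpG, with a median of 17 against 7 over all 32851 windows. Each of the 27 is the window of the start farthest upstream in its gene. The 32851 were not reduced to a single window per gene, so these sets are unlike. *Gabbr2* had 46 CpG in its window, a number that 1.65% of all windows reach, whereas *Gabrg1* had 3, which 76.7% reach. *Gabra2* and *Gabrb1* had 25 each, *Gabbr1* 18 and *Gabra4* 12. The letters GGCGCC, which SMAD proteins of the bone morphogenetic protein pathway are known to bind, stood in 8 of the 27 windows against 11.9% of all windows, and CANNTG, the E-box, in 14 of 27 against 72.3%. Both motifs read the same on either strand, and the windows were not matched for CpG content.

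*Gabrg1*, the γ1 subunit gene and the most abundant GABA-A gene per length, rose modestly with H3.1K27M, whereas *Gabra4* and *Gabrb1* at the other end of the cluster fell. *Gabrg1* had 131, 123 and 116 CPM with *ACVR1* WT, 125, 121 and 126 CPM with *ACVR1* R206H, 159, 161 and 156 CPM with *ACVR1* WT and H3.1K27M, and 144, 144 and 147 CPM with both. Its samples with H3.1K27M were all higher, by 1.28-fold (adjusted p = 0.0141) and 1.19-fold (adjusted p = 0.000152). *Gabra4* had 12, 39.6 and 47.6 CPM with *ACVR1* WT, 23.3, 26.4 and 21.6 CPM with *ACVR1* R206H, 9.54, 9.50 and 9.92 CPM with *ACVR1* WT and H3.1K27M, and 13.5, 13.7 and 13.8 CPM with both. Within each *ACVR1* background the samples with H3.1K27M were all lower, with *ACVR1* WT replicate 1 closest to them. The decrease was 3.44-fold in *ACVR1* WT cells (log2 -1.78 ± 0.47 SE, adjusted p = 0.0394) and 1.70-fold in *ACVR1* R206H cells (log2 -0.77 ± 0.08 SE, adjusted p = 7.99e-06). With the replicate block the call in *ACVR1* WT cells was lost (edgeR adjusted p = 0.0797). *Gabrb1*, the β1 gene, had 12.8, 43.2 and 61.9 CPM with *ACVR1* WT, 21.7, 26.4 and 20.6 CPM with *ACVR1* R206H, 9.21, 12.1 and 10.4 CPM with *ACVR1* WT and H3.1K27M, and 17.0, 19.8 and 18.7 CPM with both. It showed the same order of groups and the same low *ACVR1* WT replicate 1, and fell 3.74-fold (adjusted p = 0.0462) and 1.21-fold (adjusted p = 0.0327) with H3.1K27M. The first call was lost with the replicate block (edgeR adjusted p = 0.0746) and the second with all 12 samples in one fit. Each was also lost when certain single samples were left out.

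*Gabra2*, the α2 gene, had 4.28, 19 and 20.7 CPM with *ACVR1* WT, 8.35, 9.41 and 8.21 CPM with *ACVR1* R206H, 4.9, 4.97 and 5.4 CPM with *ACVR1* WT and H3.1K27M, and 7.65, 6.56 and 7.96 CPM with both. *ACVR1* WT replicate 1 was again the low one of its group, below every *ACVR1* R206H sample. With H3.1K27M *Gabra2* had a log2 difference of -1.53 ± 0.54 (adjusted p = 0.0865) in *ACVR1* WT cells. Without that library it passed at -1.97 ± 0.11 (adjusted p = 5.85e-06). In *ACVR1* R206H cells the difference was -0.20 ± 0.11 (adjusted p = 0.14). The sign of the difference made by *ACVR1* R206H at *Gabra2*, *Gabra4* and *Gabrb1* depended on H3.1K27M once *ACVR1* WT replicate 1 was left out. With H3.1K27M, all 3 genes rose with *ACVR1* R206H, *Gabra4* by 0.53 ± 0.08 (log2 ± SE, adjusted p = 0.000327), *Gabrb1* by 0.85 ± 0.10 (adjusted p = 9.35e-05) and *Gabra2* by 0.57 ± 0.11 (adjusted p = 0.00304). Without H3.1K27M, *Gabra4*, *Gabrb1* and *Gabra2* had log2 differences of -0.48 ± 0.46, -0.79 ± 0.52 and -0.77 ± 0.53 over all samples, none past the threshold. They had -0.88 ± 0.11 (adjusted p = 0.00313), -1.21 ± 0.16 (adjusted p = 0.00339) and -1.20 ± 0.11 (adjusted p = 0.00182) without that library. In that comparison, where 11% of all genes fell and 12.1% rose, 6 of 8 astrocyte markers and 5 of 8 oligodendrocyte progenitor markers also fell and 0 rose. Their part in the result was not tested. The interaction, which tests whether the effect of *ACVR1* R206H differs with H3.1K27M, was 1.02 ± 0.51 for *Gabra4* (adjusted p = 0.678), 1.63 ± 0.58 for *Gabrb1* (adjusted p = 0.562) and 1.34 ± 0.59 for *Gabra2* (adjusted p = 0.642) over all 12 samples. Without *ACVR1* WT replicate 1 it was 1.42 ± 0.13 (adjusted p = 2.74e-05), 2.06 ± 0.21 (adjusted p = 4.6e-05) and 1.78 ± 0.15 (adjusted p = 1.83e-05).

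**Figure D5:**
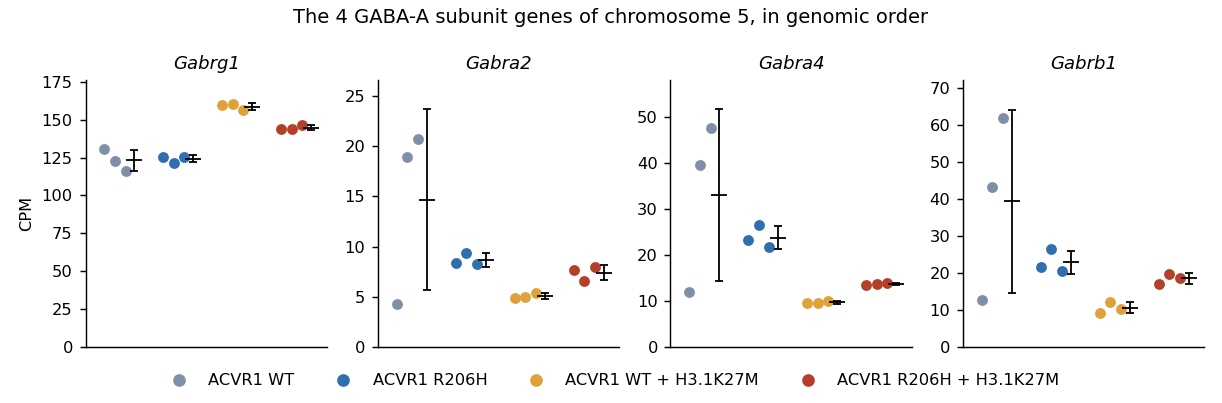
CPM (vertical axis, from 0) of the 4 listed GABA-A genes of mouse chromosome 5 in each sample, colored by group, with the mean and SD of each group (n = 3) as the black bar. *Gabrg1* is higher in the samples with H3.1K27M (144 to 161 CPM, against 116 to 131 CPM), while the other 3 genes are lowest with *ACVR1* WT and H3.1K27M and in *ACVR1* WT replicate 1.

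The remaining GABA-A genes that passed were low and rose with H3.1K27M. *Gabrb2*, the β2 gene, had 1.65, 2.22 and 1.94 CPM with *ACVR1* WT, 1.91, 2.18 and 1.90 CPM with *ACVR1* R206H, 4.44, 4.87 and 5.44 CPM with *ACVR1* WT and H3.1K27M, and 6.27, 6.61 and 7.21 CPM with both. The samples with both mutations were the highest, those with H3.1K27M alone came next, and the groups without it overlapped. It rose 2.52-fold (adjusted p = 0.00531) and 3.43-fold (adjusted p = 6.66e-07) with H3.1K27M, and 1.39-fold with *ACVR1* R206H in its presence (adjusted p = 0.0123). *Gabrg3*, the γ3 gene, had 2.35, 1.96 and 1.21 CPM with *ACVR1* WT, 2.82, 2.03 and 1.65 CPM with *ACVR1* R206H, 6.47, 6.97 and 6.52 CPM with *ACVR1* WT and H3.1K27M, and 6.18, 7.03 and 6.13 CPM with both. It split by H3.1K27M, by 3.57-fold (adjusted p = 0.00531) and 3.04-fold (adjusted p = 1.16e-05), and overlapped between the *ACVR1* groups on either side. *Gabra3* rose 2.65-fold in *ACVR1* R206H cells (adjusted p = 9.13e-06). In *ACVR1* WT cells its log2 difference was 1.17 ± 0.36 (adjusted p = 0.0599) over all samples. It passed at 0.86 ± 0.21 (adjusted p = 0.00887) without *ACVR1* WT replicate 1. *Gabra5* passed in no comparison. Both listed chloride transporters that set the direction of the GABA-A current rose with H3.1K27M in *ACVR1* R206H cells (against 29.1% of all genes), *Slc12a2* by 0.42 and *Slc12a5* by 1.23 on the log2 scale (adjusted p = 9.18e-06 and 1.35e-05). In *ACVR1* WT cells *Slc12a5* rose by 1.28 (adjusted p = 0.00591), and *Slc12a2* had a log2 difference of 0.24 (adjusted p = 0.0781).

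Of the receptor genes called with H3.1K27M in both backgrounds, *Gabbr2* had the largest fold change, and its partner *Gabbr1* fell with it. *Gabbr1* encodes the subunit that binds GABA and *Gabbr2* the one that couples to G proteins and carries the dimer to the cell surface. *Gabbr2* had 20.5, 132 and 149 CPM with *ACVR1* WT, 36.2, 64.5 and 46.1 CPM with *ACVR1* R206H, 8.38, 9.36 and 8.80 CPM with *ACVR1* WT and H3.1K27M, and 4.42, 5.40 and 5.15 CPM with both mutations. The groups with H3.1K27M overlapped neither each other nor the samples without it, while the groups without it overlapped through *ACVR1* WT replicate 1. The decrease was 11.4-fold in *ACVR1* WT cells (log2 -3.52 ± 0.71 SE, adjusted p = 0.0178) and 9.54-fold in *ACVR1* R206H cells (log2 -3.25 ± 0.20 SE, adjusted p = 7.64e-08). Without *ACVR1* WT replicate 1 the first was -4.0 ± 0.08 on the log2 scale (adjusted p = 1.94e-07). *Gabbr1* had 317, 657 and 693 CPM with *ACVR1* WT, 367, 422 and 379 CPM with *ACVR1* R206H, 162, 168 and 154 CPM with *ACVR1* WT and H3.1K27M, and 132, 135 and 126 CPM with both. Its group means had the same order, and the decrease was 3.47-fold (adjusted p = 0.00926) and 2.91-fold (adjusted p = 2.0e-09).

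*ACVR1* R206H lowered both GABA-B genes further in the presence of H3.1K27M, *Gabbr2* 1.73-fold (log2 -0.79 ± 0.11 SE, adjusted p = 0.000303) and *Gabbr1* 1.21-fold (log2 -0.27 ± 0.05 SE, adjusted p = 0.00147). In its absence, the log2 differences were -1.05 ± 0.67 and -0.52 ± 0.29 over all samples (adjusted p = 0.94 for both), and -1.53 ± 0.19 (adjusted p = 0.0032) and -0.80 ± 0.08 (adjusted p = 0.00187) without *ACVR1* WT replicate 1. The level of *Gabbr1* per length was 4.003, 4.28 and 13.3 times that of *Gabbr2* in the *ACVR1* WT samples, the last being replicate 1, and 5.64 to 8.74 times in the *ACVR1* R206H samples. It was 15.0 to 16.6 times with *ACVR1* WT and H3.1K27M and 21.0 to 25.8 times with both mutations. The 2 transcripts thus fell unequally, and the groups with H3.1K27M had the larger ratios in every sample. *Kctd12*, an auxiliary subunit of the GABA-B receptor, rose with H3.1K27M by 0.99 on the log2 scale in *ACVR1* WT cells (adjusted p = 0.0034) and by 1.1 in *ACVR1* R206H cells (adjusted p = 2.59e-07).

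The interaction over all 12 samples passed the threshold for 0 of 28 receptor genes in edgeR, where 0.0712% of all genes passed (0.0583% positive and 0.0129% negative), with 4 at an unadjusted p under 0.05. In DESeq2 it passed for *Grin3a* alone of 24 genes, where 0.711% of all genes did. Without *ACVR1* WT replicate 1, edgeR called 12 of 28, 10 positive and 2 negative, against 26.6% of all genes (13.6% positive and 13% negative). *Gria2* had an interaction of 0.88 ± 0.28 over all samples (adjusted p = 0.513) and of 1.13 ± 0.11 without that library (adjusted p = 3.68e-05), and *Grin3a* of 0.72 ± 0.16 (adjusted p = 0.238) and 0.86 ± 0.10 (adjusted p = 0.000101). The 2 negative interactions without that library were those of *Gria3* (-0.78 ± 0.13, adjusted p = 0.001) and *Grm5* (-1.10 ± 0.23, adjusted p = 0.00351), whose levels in *ACVR1* WT replicate 1 were 2.04-fold and 2.35-fold the mean of the other *ACVR1* WT samples. The 12 calls in edgeR were thus made only without that library, whereas the DESeq2 call of *Grin3a* was made over all 12 samples.

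Beyond these receptors, 69 further genes were listed. They encode auxiliary and anchoring proteins, transporters and enzymes that act on glutamate and GABA signaling, and also include 5 glycine receptor genes. With H3.1K27M, 24 rose and 22 fell of 57 tested in *ACVR1* R206H cells, where 56.5% of all genes passed. In *ACVR1* WT cells 10 rose and 10 fell of 57, where 23% of all genes passed (19 and 23 without *ACVR1* WT replicate 1, against 52.6%). With *ACVR1* R206H, 10 rose and 11 fell of 58 in the presence of H3.1K27M, against 20.3% of all genes. In its absence 0 of 57 passed, against 0% of all genes, and without *ACVR1* WT replicate 1 7 rose and 18 fell, against 23.1%. *Cacng8*, which encodes an AMPA receptor regulatory protein, rose by 1.82 on the log2 scale with H3.1K27M in *ACVR1* R206H cells (adjusted p = 3.65e-08). *Slc6a11*, the GABA transporter GAT-3 of astrocytes, fell in the same comparison from 772 to 267 CPM (log2 -1.50 ± 0.10 SE, adjusted p = 1.91e-07), and in *ACVR1* WT cells *Homer2*, a scaffold of metabotropic receptors, fell by 0.55 on the log2 scale (adjusted p = 0.0109). With both mutations against *ACVR1* WT with H3.1K27M, *Olfm2* rose by 0.83 (adjusted p = 9.51e-07) and *Neto2*, an auxiliary subunit of kainate receptors, by 0.45 (adjusted p = 8.44e-06). *Slc6a11* fell by 1.22 (adjusted p = 1.7e-06). Astrocyte markers moved beside these genes: in that comparison 4 of 8 rose and 1 fell. Of the oligodendrocyte progenitor markers 0 of 8 rose and 6 fell, and of the neural progenitor markers 5 of 7 rose and 1 fell. Of all genes, 11.4% rose and 8.95% fell there. With H3.1K27M in *ACVR1* R206H cells, where 29.1% of all genes rose and 27.4% fell, 2 of the astrocyte markers rose and 4 fell. Of the 10 neuron markers, 7 rose and 2 fell with H3.1K27M in *ACVR1* R206H cells, and of the 8 oligodendrocyte progenitor markers 4 rose and 4 fell. Their part in the results was not tested.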

How the data were processed

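RNA from 12 brainstem progenitor samples was sequenced. According to the submitters' processing notes and the study's methods, the authors aligned the reads to mm10 (GRCm38) with STAR 2.6.0b-1 and counted them per Ensembl gene with HTSeq in Galaxy, in union mode, without strand and with reads of several matches or several genes left out, so that overlapping genes lose their shared reads. The deposited values are whole counts per gene and sample, not normalized and not pooled. GENCODE M21 supplied symbols, positions and exonic lengths for 54495 of the 54532 genes.

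Each comparison was tested with the quasi-likelihood F test of edgeR 4.0.16 (R 4.3.3, TMM normalization) on its 6 samples, and the interaction on all 12. Genes with a mean of at least 10 counts after median-of-ratios scaling were tested, and p values were Benjamini-Hochberg adjusted over all of them with a threshold of 0.05. DESeq2 1.42.0, the authors' tool, was an alternative, as were median-of-ratios factors, no filter, the replicate block, all 12 samples in one fit and leaving out each sample in turn. Levels are CPM after TMM over all samples, divided by exonic length where genes are compared. The edgeR and DESeq2 fits were tested on simulated data. Both depth and the number of samples limit the precision: 3 samples against 3 cannot give an exact p under 0.1 for a single gene.

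The members and gene lists were chosen with earlier results of these data known. The text names with all samples the members past the threshold whose groups did not overlap, up to the 8 with the smallest adjusted p in each comparison, and the most abundant member of each class per length. Of the other genes it names the 2 most significant ones that rose and that fell in each comparison, and others as examples chosen after their values were seen. One gene that this rule names is not reported here. Of the 37 genes, 17 share exonic bases with another gene, 3 of them more than 10% of their length: *Grin3b* (32.1%), *Grin1* (13.5%) and *Grm6* (11.1%), each with a gene of the other strand. Supplementary values of the study were not used.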

Additional observations from a re-analysis of the deposited data

How the results depend on the processing

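Of the 142 log2 differences of receptor genes, 24 changed their sign under at least 1 alternative, and 0 of these passed the threshold over all samples or in the alternative that changed the sign. Among those called over all samples or without *ACVR1* WT replicate 1, it was the log2 difference of *Grm7* between *ACVR1* R206H and *ACVR1* WT without H3.1K27M, -0.69 over all samples, which ran from -1.25 to 0.19 when single samples were left out (0.19 without *ACVR1* WT replicate 3). With all 12 samples in one fit, the count of receptor genes called for *ACVR1* R206H with H3.1K27M went from 14 to 3, that for H3.1K27M from 23 to 17 with *ACVR1* R206H and from 16 to 20 with *ACVR1* WT, and DESeq2 called 1 interaction where edgeR called 0. The cause was not tested. Leaving out single samples gave 0 to 13 calls for *ACVR1* R206H without H3.1K27M, 12 to 14 with it, 4 to 23 for H3.1K27M with *ACVR1* WT, 21 to 23 with *ACVR1* R206H and 0 to 12 for the interaction. The 13 and 12 are those without *ACVR1* WT replicate 1, and the 4 those without an *ACVR1* WT sample with H3.1K27M. Median-of-ratios factors kept the side of the threshold of all 84 values compared, and no filter of 82.

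Samples that share a replicate number correlated in their distance from the group mean at -0.110 to 0.306 across genes. The highest values, 0.242 and 0.306, were those of replicates 1 and 2 of *ACVR1* R206H and *ACVR1* WT without H3.1K27M. Samples of different numbers were not compared in this way, so whether the numbers pair the samples stayed undecided. The study used paired t tests for its assays of such neurospheres, with cell lines from separate litters as the sample size. With the replicate block, the calls were 11 for H3.1K27M with *ACVR1* WT, 22 with *ACVR1* R206H, 14 for *ACVR1* R206H with H3.1K27M, and 0 both without it and for the interaction. The calls lost with *ACVR1* WT were those of *Grin1*, *Grin2a*, *Grik1*, *Gabra4* and *Gabrb1*. Low genes such as *Grin2b* limit what these depths can show.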
